A study of Mus musculus with 36 samples.

Results

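Liver RNA of mice given roxadustat was compared with liver RNA of mice given DMOG, in 12 of the 36 RNA-seq libraries of the series. The libraries were chosen by their labels, as all those that carry the tissue label retina and either compound as the treatment, and they stand in 1 table. The mice were of the strain C57BL/6. The groups are 6 libraries with roxadustat, 6 with DMOG and 6 with PBS, the control of the same table, which is used here as the level to which both compounds are set. Total RNA was extracted with RNeasy and sequenced after removal of ribosomal RNA with a stranded kit, and the values are FPKM, fragments per transcript length and sequencing depth. The labels give no age, dose, route or time, so whether the compounds were given at matched doses and times is unknown, and their values stand side by side. They also do not say whether the libraries of a group come from separate animals, so the p-values speak only of the spread among these libraries, which may be technical in part. Each group held libraries of both sexes, as given below, so no group comes from 1 animal alone. By its title the series compares the pharmacology of HIF stabilisers for retinopathy of prematurity, and the question addressed here is where the liver responses of these inhibitors differ.

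The tissue label goes against the data. The summed level of 11 hepatocyte genes that were tested was 26914 to 35435 FPKM with roxadustat, 25763 to 43092 FPKM with DMOG and 31022 to 39008 FPKM with PBS. Apoa1, the main apolipoprotein of HDL, averaged 9174 ± 1216 FPKM with roxadustat, 8557 ± 1896 FPKM in the DMOG libraries other than replicate 5 and 10070.0 ± 1561 FPKM with PBS (SD, n = 6, 5 and 6). Trf and Ahsg, also in the hepatocyte list, were listed at 0 in all 18 libraries. The 12 retina genes of the list summed to 1.32 to 2.32 FPKM with roxadustat, 1.15 to 2.73 FPKM with DMOG and 1.32 to 2.16 FPKM with PBS, and Rcvrn and Crx, the genes of recoverin and of a photoreceptor transcription factor, were at 0 throughout. The libraries are therefore called liver by their transcriptome.

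Cells sense oxygen through the prolyl hydroxylases PHD1, PHD2 and PHD3, encoded by Egln2, Egln1 and Egln3, which use oxygen, iron and 2-oxoglutarate to mark the HIF alpha subunits for destruction by way of the VHL protein. When they are inhibited, HIF alpha pairs with ARNT and switches on genes of red cell formation, glycolysis and vessel growth, and Egln3 and Egln1 are themselves HIF targets. DMOG, dimethyloxalylglycine, is a cell-permeable ester of N-oxalylglycine, a mimic of 2-oxoglutarate that inhibits many enzymes of the 2-oxoglutarate dioxygenase family. Roxadustat carries a glycine amide on an isoquinoline and was developed as a HIF prolyl hydroxylase inhibitor. In liver, HIF-2 is known for the control of erythropoietin and of lipid and iron metabolism.

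All levels of a library came to a sum of 462909 to 504222 FPKM, over 16029 to 16346 detected genes, with roxadustat, 433021 to 540324 FPKM and 16049 to 16389 genes with DMOG, and 448552 to 498703 FPKM and 16141 to 16329 genes with PBS. The files give no read counts, so absolute depth is unknown. Depth relative to the mean of the 18 libraries, estimated from the steps between low values, was 0.738 to 1.149 with roxadustat, 0.813 to 1.232 with DMOG and 0.908 to 1.149 with PBS. DMOG replicate 5 stood apart from its group. On the first principal component, which held 39.9% of the variance, roxadustat libraries lay between -13.70 and 17.41, the other 5 DMOG libraries between 13.33 and 38.65, DMOG replicate 5 at -32.97 and PBS libraries between -33.32 and -9.47. Its Epo, Egln3 and Ankrd37 values were near those of PBS, as given below with each gene. For each pathway list the count of called members is given without this library and with it. It was set aside because of its values, which by itself widens the distance between the compounds, and why it lay with PBS was not tested. Judged by Xist and Y-linked transcripts there were 1 female and 5 male libraries with roxadustat, 4 and 2 with DMOG, where replicates 1 and 5 were male, and 3 and 3 with PBS, so sex and compound overlap in part.

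**Figure D1:**
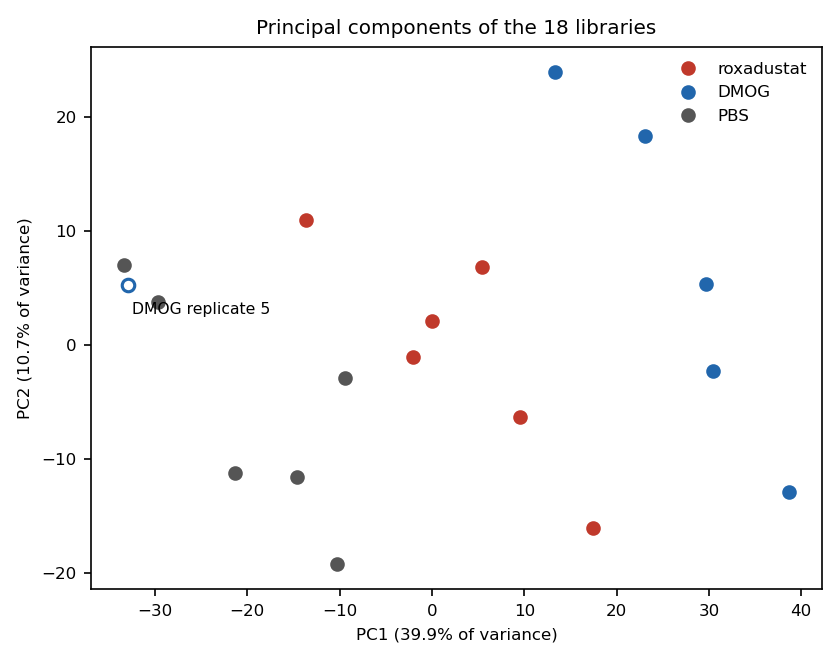
Principal components of the 18 libraries, from log2(FPKM + 0.5) of the genes tested, with each point 1 library and the axes in arbitrary units of the components (39.9% and 10.7% of the variance). Roxadustat libraries lie between most DMOG libraries and PBS on the horizontal axis, and DMOG replicate 5 (open circle, at -32.97) lies among the PBS libraries.

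The promoters of 5 genes with large differences between the compounds, in either direction, are printed as examples. They are not chosen by size alone. Epo, Tnnc1 and Rnf186 had larger differences than Egln3 and P4ha2, but held none of the letters marked below and are not printed. The printed genes that were lower with roxadustat all hold the letters, so the examples show more of them than the named genes do. Each is the 250 bases before the start of the gene from RefSeq, build GRCm38.p6, written 5′ to 3′ on the strand of the gene, and the measured values do not depend on them, as the deposited values were made on mm9. Capitals mark ACGTG or its reverse complement CACGT, a form of the core of the HIF binding motif. They were searched on both strands with overlapping matches joined. Other forms of that core were not searched or marked, so a stretch without capitals may still hold one.
Ankrd37 (chr8:45999851-46000100, minus strand): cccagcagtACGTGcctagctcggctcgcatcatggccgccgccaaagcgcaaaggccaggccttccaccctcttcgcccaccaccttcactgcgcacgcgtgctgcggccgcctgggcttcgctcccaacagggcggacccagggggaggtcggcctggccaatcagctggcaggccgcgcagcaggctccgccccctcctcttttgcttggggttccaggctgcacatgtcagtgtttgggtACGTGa
Egln3 (chr12:54203875-54204124, minus strand): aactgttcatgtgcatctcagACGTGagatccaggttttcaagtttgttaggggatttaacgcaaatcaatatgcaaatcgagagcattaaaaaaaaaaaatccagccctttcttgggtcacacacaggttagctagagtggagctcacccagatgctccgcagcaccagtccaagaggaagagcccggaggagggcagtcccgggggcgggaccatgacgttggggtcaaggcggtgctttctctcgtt
P4ha2 (chr11:54100674-54100923, plus strand): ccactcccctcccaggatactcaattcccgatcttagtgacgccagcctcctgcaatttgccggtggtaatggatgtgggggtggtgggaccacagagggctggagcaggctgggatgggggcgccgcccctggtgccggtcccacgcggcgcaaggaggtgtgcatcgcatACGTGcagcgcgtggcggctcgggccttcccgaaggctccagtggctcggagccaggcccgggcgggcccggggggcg
Nr0b2 (chr4:133553126-133553375, plus strand): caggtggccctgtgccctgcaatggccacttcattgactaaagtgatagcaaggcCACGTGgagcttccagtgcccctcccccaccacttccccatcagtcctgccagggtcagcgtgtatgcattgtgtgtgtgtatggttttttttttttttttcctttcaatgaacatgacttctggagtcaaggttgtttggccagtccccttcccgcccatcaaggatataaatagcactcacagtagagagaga
Tdo2 (chr3:81975729-81975978, minus strand): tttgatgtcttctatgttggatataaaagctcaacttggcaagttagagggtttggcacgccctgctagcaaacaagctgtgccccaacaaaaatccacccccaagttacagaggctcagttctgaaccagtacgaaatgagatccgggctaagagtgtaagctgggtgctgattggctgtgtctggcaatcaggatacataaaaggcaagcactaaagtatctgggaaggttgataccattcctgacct

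Ankrd37, Egln3 and P4ha2, all lower with roxadustat than with DMOG, held the letters, and so did Nr0b2, which was higher, in the form of 1 CACGTG in which both matches overlap, while Tdo2, also higher, held none. Of the 12 named genes that ranked lowest without overlap, 10 had a window and 4 of these held the letters, and of the 12 that ranked highest, 10 had a window and 3 held them. Epo, Tnnc1, Rnf186, Junb, Plk3 and Smox, all lower with roxadustat, held none. Among the genes tested, 2443 of 9915 with such a window held the letters, which is 24.6%. The share was 26.8% of genes lower with roxadustat than with DMOG (187 of 698 with a window) and 27.0% of genes higher (246 of 911), both without DMOG replicate 5. A match is a description of these letters and not a site of binding.

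Roxadustat and DMOG libraries differed at 2052 of 12657 genes, 16.2% of those tested, when DMOG replicate 5 was left out (limma, adjusted p under 0.05). Of these, 1147 genes (9.06% of those tested) were higher with roxadustat and 905 (7.15%) were lower. With all 12 libraries 379 genes were called, 2.99% of those tested, of which 235 (1.86%) were higher and 144 (1.14%) lower, and all 379 were also called with the same sign without DMOG replicate 5. At an unadjusted p under 0.05 there were 3721 genes without and 2267 genes with that library. The balance of the calls depended on the scaling. After scaling all libraries to the same sum, 73.9% of the called genes were higher with roxadustat without DMOG replicate 5, against 55.9% as deposited, and 82.6% against 62.0% with all libraries. With sex as a term in the fit 1237 genes were called without DMOG replicate 5 and 78 with all libraries. The values of the roxadustat and DMOG libraries did not overlap at 1020 genes (8.06%) without DMOG replicate 5 and at 143 genes (1.13%) with it.

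**Figure D2:**
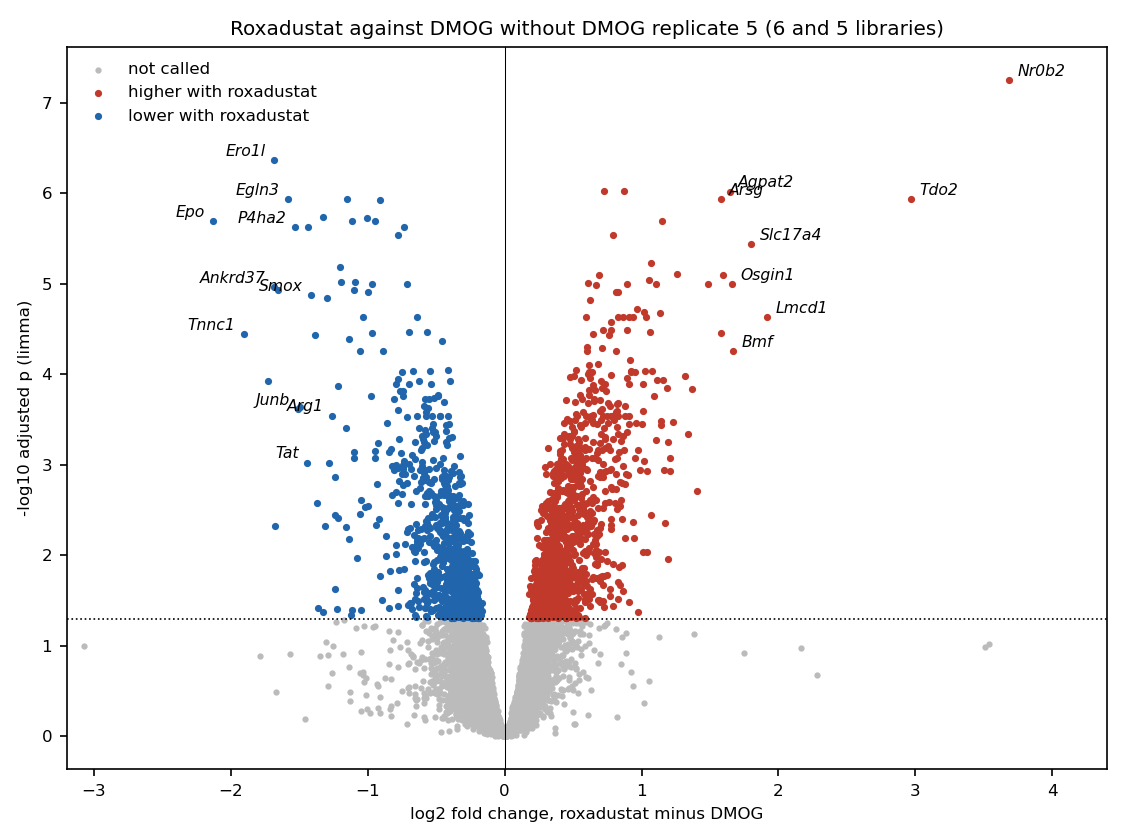
Each point is 1 of 12657 genes, with the log2 fold change of roxadustat minus DMOG on the horizontal axis and -log10 of the limma adjusted p on the vertical axis, without DMOG replicate 5. Nr0b2 and Tdo2 stand farthest to the right among called genes and Epo farthest to the left, and the dotted line is the adjusted p of 0.05.

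Epo, Egln3, Ankrd37, Ero1l and P4ha2, all known HIF targets, were lower with roxadustat than with DMOG when DMOG replicate 5 was left out, and higher with each compound than with PBS. Epo, the gene of erythropoietin, which drives red cell formation, averaged 4.77 ± 1.32 FPKM with roxadustat, 21.9 ± 3.04 FPKM with DMOG without replicate 5, and 0.221 ± 0.152 FPKM with PBS (SD, n = 6, 5 and 6). Its lowest, median and highest values were 2.12, 5.22 and 5.65 FPKM with roxadustat and 17.2, 22 and 24.6 FPKM in the other 5 DMOG libraries, and DMOG replicate 5 was listed at 0. The ranges of the compounds are apart once that library is left out, and roxadustat replicate 2 gave the low value. The log2 difference of roxadustat minus DMOG, on the scale of log2(FPKM + 0.5) used throughout, was -2.13 ± 0.19 (SE, limma adjusted p = 2.05e-06), and with all 12 libraries it was -1.22 ± 0.70 (adjusted p = 0.384), which is not called. Below, ± is the SE after a log2 difference and the SD after a mean FPKM, and means, log2 differences and calls are without DMOG replicate 5 unless all libraries are named.

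Egln3 stood at 17, 18.6 and 20.4 FPKM (lowest, median and highest) in the roxadustat libraries and at 46.4, 50.6 and 72.5 FPKM in the other 5 DMOG libraries, with 8.23 FPKM in DMOG replicate 5 and 5.19, 7.05 and 8.29 FPKM with PBS. Every roxadustat library lay below the lowest of these 5 DMOG libraries and above the highest PBS library. Egln3 was thus lower with roxadustat (log2 difference -1.58 ± 0.13, limma adjusted p = 1.15e-06), against -1.13 ± 0.36 (adjusted p = 0.0923) with all 12 libraries. Ankrd37 stood at 9.07, 15.1 and 17.7 FPKM (lowest, median and highest) in the roxadustat libraries and at 33.9, 46.2 and 56.9 FPKM in the other 5 DMOG libraries, with 1.23 FPKM in DMOG replicate 5 and 1.41, 1.65 and 3.07 FPKM with PBS. Its protein holds ankyrin repeats and its gene is a known HIF target. The log2 difference was -1.69 ± 0.18 (adjusted p = 1.09e-05) and -0.89 ± 0.61 (adjusted p = 0.491) with all libraries, and roxadustat replicate 2 was again the lowest of its group.

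Ero1l stood at 31.1, 35.8 and 41.8 FPKM (lowest, median and highest) in the roxadustat libraries and at 88.7, 109 and 151 FPKM in the other 5 DMOG libraries, with 15.7 FPKM in DMOG replicate 5 and 11.1, 13.9 and 14.6 FPKM with PBS. Ero1l encodes an oxidase that forms disulfide bonds in the endoplasmic reticulum. It was lower with roxadustat (log2 difference -1.68 ± 0.12, limma adjusted p = 4.31e-07; -1.21 ± 0.37 and 0.0819 with all libraries). P4ha2 stood at 1.85, 2.79 and 3.53 FPKM (lowest, median and highest) in the roxadustat libraries and at 7.34, 8.55 and 12.9 FPKM in the other 5 DMOG libraries, with 0.959 FPKM in DMOG replicate 5 and 0.594, 0.729 and 1.02 FPKM with PBS. P4ha2, a subunit of the prolyl hydroxylase that modifies collagen, differed by -1.53 ± 0.14 (adjusted p = 2.36e-06; -1.09 ± 0.35 and 0.105 with all libraries). For both genes the roxadustat libraries lay between the PBS libraries and the other 5 DMOG libraries with no overlap. One ranking used to name genes took only those without overlap between roxadustat and these DMOG libraries. For genes named by that ranking, above and below, the gap to DMOG therefore restates the choice, while the place relative to PBS does not.

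**Figure D3:**
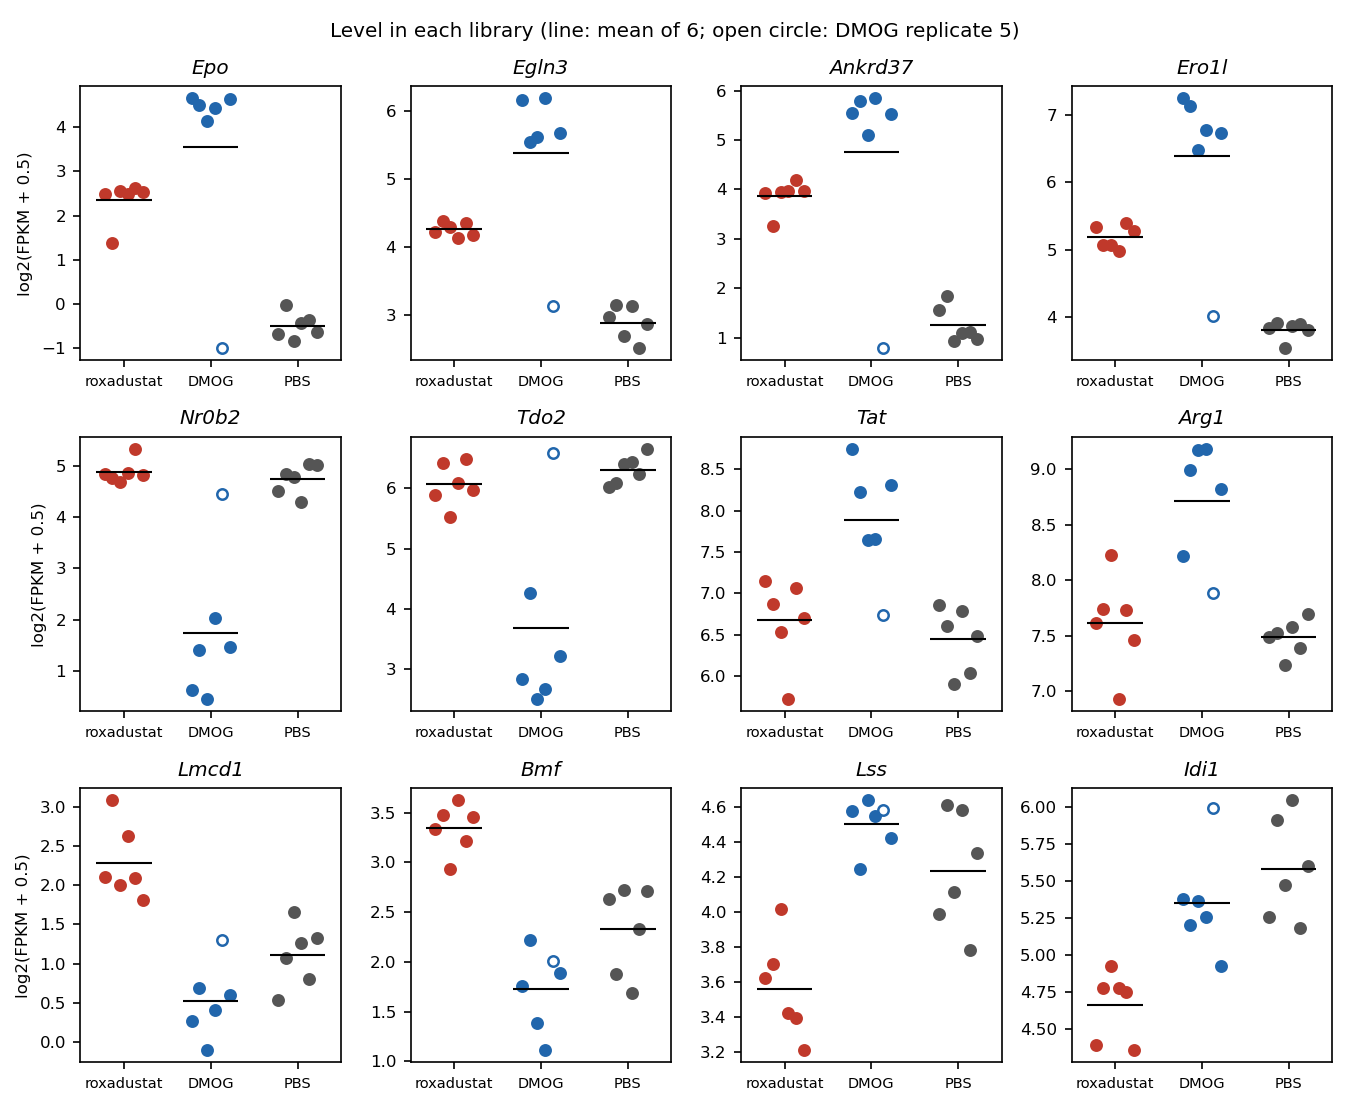
Level of 12 genes in each library, as log2(FPKM + 0.5) on the vertical axis, with roxadustat, DMOG and PBS from left to right, a line at the mean of 6 libraries and DMOG replicate 5 as an open circle. In the top row roxadustat lies between PBS and the other 5 DMOG libraries, in the middle row it lies near PBS, and in the bottom row its mean lies above those of DMOG and PBS for Lmcd1 and Bmf and below them for Lss and Idi1.

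Of 42 HIF target genes tested, out of 46 listed, 17 were called without DMOG replicate 5 (40.5%, against 16.2% of all genes tested), 16 of them lower with roxadustat and 1 higher, with a median log2 difference of -0.22 against -0.02 over all genes tested. With all 12 libraries 0 of the 42 passed the test and the median was -0.05. Against PBS the median log2 difference of the list was 0.79 with roxadustat and 1.30 with DMOG without replicate 5, with 32 and 35 members higher and 0 lower. Of all genes tested 4.12% were higher and 4.65% lower with roxadustat than with PBS, and 17.3% were higher and 18.1% lower with DMOG than with PBS. Here as below both differences from PBS share the PBS libraries. Vegfa, the vascular endothelial growth factor, averaged 28.1 ± 3.94 FPKM with roxadustat, 42.4 ± 4.35 FPKM with DMOG and 16.7 ± 1.48 FPKM with PBS (SD, DMOG without replicate 5), a log2 difference of -0.59 ± 0.10 between the compounds (limma adjusted p = 0.000566). Bnip3, a receptor for the removal of mitochondria, averaged 227 ± 27.9 FPKM with roxadustat against 413 ± 104 FPKM with DMOG (-0.83 ± 0.14), and Fam162a, a mitochondrial protein of the hypoxia response, averaged 87.4 ± 8.72 against 173 ± 24.4 FPKM (-0.97 ± 0.10). Apln, the gene of the vessel-acting peptide apelin, averaged 1.06 ± 0.229 FPKM with roxadustat and 3.73 ± 1.52 FPKM with DMOG (-1.39 ± 0.17, adjusted p = 3.66e-05). None of these was called with all 12 libraries.

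Slc16a3, which encodes the lactate exporter MCT4, was the HIF target that was higher with roxadustat than with DMOG. Slc16a3 stood at 10.7, 16.5 and 27.4 FPKM (lowest, median and highest) in the roxadustat libraries and at 6.66, 8.88 and 12.7 FPKM in the other 5 DMOG libraries, with 1.75 FPKM in DMOG replicate 5 and 1.64, 2.26 and 4.45 FPKM with PBS. The ranges of the compounds overlap. The log2 difference was 0.86 ± 0.25 (limma adjusted p = 0.0247), against 1.21 ± 0.35 (adjusted p = 0.0631) with all libraries, and it was not called when roxadustat replicate 1, DMOG replicate 1 or DMOG replicate 4 was left out too.

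Of 28 glycolysis genes tested, 19 were higher with roxadustat than with PBS and 0 lower, while 20 were higher and 5 lower with DMOG than with PBS, without DMOG replicate 5. Over all genes tested, 4.12% were higher and 4.65% lower with roxadustat, and 17.3% and 18.1% with DMOG. The 5 of 28 that were lower with DMOG are thus near the share of all genes. Between the compounds 10 of the 28 were called (35.7%, against 16.2% of all genes tested), and 0 with all 12 libraries. Of the 10, 8 were lower and 2 higher with roxadustat. With sex as a term 5 were lower, and 5 were also lower when any 1 of roxadustat replicates 4 and 6, DMOG replicates 2, 4 and 6 and PBS replicate 4 was left out. Gpi1, which interconverts glucose and fructose phosphates, averaged 186 ± 22.8 FPKM with roxadustat, 473 ± 90.4 FPKM with DMOG and 65.5 ± 5.78 FPKM with PBS (SD, DMOG without replicate 5), a log2 difference of -1.33 ± 0.12 (limma adjusted p = 1.81e-06). Pfkfb3, which makes the activator of phosphofructokinase, averaged 5.55 ± 0.654 FPKM with roxadustat against 9.76 ± 0.875 FPKM with DMOG (-0.77 ± 0.11), and Aldoc, the brain-type aldolase, 12.5 ± 1.75 against 19.4 ± 3.11 FPKM (-0.61 ± 0.12). Slc2a2, the glucose transporter of hepatocytes, was higher with roxadustat, at 125 ± 25.3 FPKM, against 68.7 ± 31.6 FPKM with DMOG and 143 ± 14.1 FPKM with PBS (0.94 ± 0.20).

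Among the oxygen sensors and HIF subunits, 3 of 8 tested were called without DMOG replicate 5 (37.5%, against 16.2% of all genes tested). All 3 were lower with roxadustat, and 0 were called with all libraries. They were Egln3, Arnt, the partner of the HIF alpha subunits (10.7 ± 0.965 FPKM with roxadustat and 15.7 ± 1.97 FPKM with DMOG, log2 difference -0.53 ± 0.08), and Vhl, which brings HIF alpha to the ubiquitin ligase (10.7 ± 0.674 and 13.5 ± 2.12 FPKM, -0.31 ± 0.09). Vhl was not called with sex as a term, in a fit of the roxadustat and DMOG libraries only, or without DMOG replicate 1 or replicate 4. Egln1, the main oxygen sensor, averaged 18.4 ± 1.44 FPKM with roxadustat, 22.4 ± 3.91 FPKM with DMOG and 8.24 ± 0.753 FPKM with PBS. Its difference between the compounds was -0.26 ± 0.10 with a 95% interval of -0.47 to -0.06 (adjusted p = 0.0761), not called, whereas each compound was above PBS (log2 difference 1.11 ± 0.09 with roxadustat and 1.38 ± 0.10 with DMOG). The other sensors and the HIF alpha genes were not called either. The 95% interval was -0.23 to 0.12 for Egln2, -0.06 to 0.18 for Hif1an, which encodes the asparaginyl hydroxylase FIH, -0.24 to 0.08 for Hif1a and -0.49 to 0.04 for Epas1, the gene of HIF-2 alpha.

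Of 45 other genes of 2-oxoglutarate dioxygenases, 14 were called without DMOG replicate 5 (31.1%, against 16.2% of all genes tested). Of the 14, 11 were lower with roxadustat and 3 higher, and with all libraries 1 was higher and 1 lower. With sex as a term 5 were lower and 3 higher, and without roxadustat replicate 1 or DMOG replicate 3 only 1 was higher. Besides P4ha2, Kdm4c and Kdm5a, both histone lysine demethylases, had the smallest adjusted p. Kdm4c averaged 3.62 ± 0.313 FPKM with roxadustat against 4.96 ± 0.351 FPKM with DMOG (-0.41 ± 0.07) and 3.3 ± 0.224 FPKM with PBS. Kdm5a averaged 6.73 ± 0.538 FPKM with roxadustat against 8.57 ± 0.43 FPKM with DMOG (-0.33 ± 0.06). Ogfod1, a prolyl hydroxylase of a ribosomal protein, averaged 3.32 ± 0.227 FPKM with roxadustat against 4.3 ± 0.307 FPKM with DMOG (-0.33 ± 0.06, limma adjusted p = 0.0016), and was also called with all 12 libraries (-0.29 ± 0.07, adjusted p = 0.0253).

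Among called genes the largest difference in the other direction was at Nr0b2, the gene of the corepressor SHP, which holds back bile acid synthesis. Nr0b2 stood at 25.3, 28 and 39.4 FPKM (lowest, median and highest) in the roxadustat libraries and at 0.868, 2.14 and 3.61 FPKM in the other 5 DMOG libraries, with 21.2 FPKM in DMOG replicate 5 and 19.2, 27.6 and 32.3 FPKM with PBS. All 6 roxadustat libraries lay above every DMOG library, DMOG replicate 5 included, and within or above the range of PBS. The level was 14.8 times as high with roxadustat as in the other 5 DMOG libraries, a log2 difference of 3.69 ± 0.23 (limma adjusted p = 5.57e-08), and 3.15 ± 0.45 with all 12 libraries (adjusted p = 0.00161). Against PBS the log2 difference was 0.14 ± 0.22 with roxadustat (adjusted p = 0.756) and -3.55 ± 0.23 with DMOG (adjusted p = 3.58e-09).

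Of 27 genes of bile acid synthesis and transport, 11 were called without DMOG replicate 5 (40.7%, against 16.2% of all genes tested). Of the 11, 9 were higher with roxadustat and 2 lower, and the list had a median log2 difference of 0.23. With all 12 libraries 4 were higher and 1 was lower. Abcb11, the bile salt export pump, averaged 106 ± 29.6 FPKM with roxadustat, 62.2 ± 7.84 FPKM with DMOG and 95.7 ± 8.86 FPKM with PBS (SD, DMOG without replicate 5), a log2 difference of 0.73 ± 0.14 (limma adjusted p = 0.00193). The other transporters Abcc2 (0.53 ± 0.10) and Abcb4, which exports phospholipid (0.53 ± 0.10), and Acox2, of bile acid side chain oxidation (0.60 ± 0.11), were higher too. Klb, the coreceptor for FGF15 and FGF21, averaged 20.5 ± 3.06 FPKM with roxadustat against 12.6 ± 3.34 FPKM with DMOG (0.70 ± 0.13). Nr1h4, the bile acid receptor FXR, was lower with roxadustat, at 28.4 ± 1.14 FPKM against 41 ± 6.52 FPKM (-0.51 ± 0.10). Cyp7a1, the rate-limiting enzyme of bile acid synthesis, had 6.97 ± 2.32 FPKM with roxadustat, 13.6 ± 8.13 FPKM with DMOG and 18.3 ± 9.43 FPKM with PBS, a difference of -0.84 ± 0.35 that was not called (95% interval -1.56 to -0.11).

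Tdo2, which opens the ring of tryptophan in the first step of its degradation, was also higher with roxadustat than with DMOG. Tdo2 stood at 45.6, 65 and 89.6 FPKM (lowest, median and highest) in the roxadustat libraries and at 5.17, 6.61 and 18.8 FPKM in the other 5 DMOG libraries, with 95.3 FPKM in DMOG replicate 5 and 64.8, 79.7 and 99.8 FPKM with PBS. Roxadustat and PBS ranges overlap, and the 5 DMOG libraries lie below both. The log2 difference was 2.97 ± 0.25 (limma adjusted p = 1.15e-06), and 2.39 ± 0.49 with all 12 libraries (adjusted p = 0.0169). In the list of urea cycle and amino acid degradation, 11 of 43 genes were called without DMOG replicate 5 (25.6%, against 16.2% of all genes tested). Of the 11, 5 were higher and 6 lower with roxadustat, and with all libraries 2 were higher and 4 lower. Gldc, of glycine cleavage, averaged 46.7 ± 12.2 FPKM with roxadustat, 21.5 ± 2.84 FPKM with DMOG and 63.7 ± 6.91 FPKM with PBS (1.07 ± 0.14).

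Other amino acid genes went the opposite way. Arg1, the enzyme that releases urea, stood at 203 ± 58.1 FPKM with roxadustat, 482 ± 116 FPKM with DMOG and 179.5 ± 19.3 FPKM with PBS (SD, DMOG without replicate 5), a log2 difference of -1.26 ± 0.19 (limma adjusted p = 0.000285; -1.09 ± 0.22 and 0.0141 with all libraries). Nags, which makes the activator of the urea cycle, averaged 39.3 ± 8.6, 89.3 ± 5.58 and 36.6 ± 1.7 FPKM in the same order of groups (-1.20 ± 0.12, adjusted p = 6.46e-06; -1.0 ± 0.19 and 0.0101 with all libraries). Got1, the cytosolic aspartate aminotransferase, averaged 69.9 ± 19.5 FPKM with roxadustat against 173 ± 58.3 FPKM with DMOG (-1.29 ± 0.23; -1.17 ± 0.23 with all libraries). Tat stood at 52.2, 110.0 and 141 FPKM (lowest, median and highest) in the roxadustat libraries and at 200.1, 297 and 427 FPKM in the other 5 DMOG libraries, with 106 FPKM in DMOG replicate 5 and 59.3, 92.9 and 115 FPKM with PBS. Tat encodes tyrosine aminotransferase, a classical glucocorticoid target of liver, and was lower with roxadustat (log2 difference -1.44 ± 0.25, adjusted p = 0.000947; -1.21 ± 0.29 and 0.0333 with all libraries). Neither Arg1, Nags, Got1 nor Tat was called between roxadustat and PBS (adjusted p = 0.716, 0.753, 0.773 and 0.624), and each was higher with DMOG than with PBS (1.39 ± 0.19, 1.27 ± 0.12, 1.41 ± 0.23 and 1.67 ± 0.25).

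Of 27 genes of gluconeogenesis, glycogen and the insulin response, 12 were called without DMOG replicate 5 (44.4%, against 16.2% of all genes tested). Of the 12, 11 were lower with roxadustat and 1 higher. The list had a median of -0.23, and with all libraries 4 were lower. Ppargc1a, the coactivator of fasting metabolism, averaged 2.1 ± 0.323 FPKM with roxadustat, 5.03 ± 1.39 FPKM with DMOG and 2.61 ± 0.301 FPKM with PBS (-1.06 ± 0.13, limma adjusted p = 5.5e-05), and its roxadustat libraries lay below all 6 DMOG libraries. Irs2, an insulin receptor substrate, averaged 18.8 ± 2.15 FPKM with roxadustat against 37.4 ± 9.2 FPKM with DMOG (-0.95 ± 0.16), and Ugp2, which makes the sugar donor for glycogen, 119 ± 14.8 against 204 ± 52.8 FPKM (-0.74 ± 0.13). Glycogen genes Gbe1 (-0.58 ± 0.12), Pgm2 (-0.43 ± 0.09) and Ppp1r3b (-0.74 ± 0.14) were lower as well. Gcgr, the glucagon receptor, was the member that was higher (0.44 ± 0.12), but not when DMOG replicate 3 was left out too.

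In the list of PPAR alpha and fatty acid oxidation, 9 of 45 genes were called without DMOG replicate 5. This is 20%, near the 16.2% of all genes tested. Of the 9, 8 were higher with roxadustat and Ppargc1a was lower. The median log2 difference of the list was 0.21, against -0.02 over all genes tested. Of the 45 members 40 had a positive difference. With libraries rescaled to an equal total 14 were higher, without DMOG replicate 2 there were 15, and with all libraries 2 were higher and 1 lower. Ppara stood at 44.9, 55.5 and 68.4 FPKM (lowest, median and highest) in the roxadustat libraries and at 25.7, 32.5 and 52 FPKM in the other 5 DMOG libraries, with 54.3 FPKM in DMOG replicate 5 and 46.8, 56.5 and 69.5 FPKM with PBS. Ppara, the nuclear receptor that controls this program, was higher with roxadustat by 0.77 ± 0.15 (limma adjusted p = 0.00259; 0.65 ± 0.17 and 0.0439 with all libraries), although the ranges overlap. Creb3l3, a membrane-bound factor of the fasting response, averaged 81.4 ± 5.67 FPKM with roxadustat against 46.4 ± 10.3 FPKM with DMOG (0.83 ± 0.12), and Cpt2, of fatty acid import into mitochondria, 43.6 ± 7.57 against 28.5 ± 6.02 FPKM (0.61 ± 0.13). Of 25 genes of fatty acid and triglyceride synthesis 3 were higher and 1 lower (16.0%, near the 16.2% of all genes tested), and with all libraries 1 was higher and 1 lower. Agpat2, an acyltransferase of triglyceride synthesis, averaged 128 ± 14.4 FPKM with roxadustat, 41.4 ± 11.1 FPKM with DMOG and 112 ± 10.2 FPKM with PBS (1.65 ± 0.13, adjusted p = 9.56e-07; 1.35 ± 0.25 and 0.00935 with all libraries).

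A further set of genes lay on opposite sides of PBS with the compounds. Lmcd1 stood at 3.01, 3.79 and 7.96 FPKM (lowest, median and highest) in the roxadustat libraries and at 0.432, 0.831 and 1.11 FPKM in the other 5 DMOG libraries, with 1.97 FPKM in DMOG replicate 5 and 0.944, 1.75 and 2.65 FPKM with PBS. Lmcd1, a LIM domain cofactor of transcription, was higher with roxadustat than with DMOG by 1.92 ± 0.22 (limma adjusted p = 2.32e-05; 1.76 ± 0.24 and 0.000779 with all libraries), with no overlap of the compounds even with DMOG replicate 5. Bmf stood at 7.15, 10.1 and 11.8 FPKM (lowest, median and highest) in the roxadustat libraries and at 1.67, 2.88 and 4.17 FPKM in the other 5 DMOG libraries, with 3.52 FPKM in DMOG replicate 5 and 2.71, 5.13 and 6.11 FPKM with PBS. Bmf encodes a pro-apoptotic protein of the BH3-only class, and it was higher with roxadustat by 1.67 ± 0.21 (adjusted p = 5.5e-05; 1.61 ± 0.20 and 0.000453 with all libraries). Against PBS, Lmcd1 and Bmf were higher with roxadustat (1.18 ± 0.21 and 1.01 ± 0.20) and lower with DMOG (-0.74 ± 0.22 and -0.65 ± 0.21). Tsc22d1, a regulator of transcription first found as a TGF-beta target, averaged 265 ± 42.2 FPKM with roxadustat, 96.9 ± 31.1 FPKM with DMOG and 127 ± 16.2 FPKM with PBS (1.49 ± 0.16). Slc17a4, an organic anion transporter, averaged 17.6 ± 3.37 FPKM with roxadustat, 4.76 ± 1.34 FPKM with DMOG and 11.4 ± 1.98 FPKM with PBS (1.8 ± 0.17). Both were also called with all 12 libraries (1.38 ± 0.17 and 1.63 ± 0.21), and against PBS each was higher with roxadustat (1.06 ± 0.15 and 0.60 ± 0.17) and lower with DMOG (-0.43 ± 0.16 and -1.20 ± 0.17).

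Among 26 cholesterol synthesis genes, 5 were lower with roxadustat than with DMOG and 1 was higher without DMOG replicate 5. This is 23.1%, against 16.2% of all genes tested. With all 12 libraries 4 were lower (15.4%, against 2.99% of all genes tested). These 4 became 2 with sex as a term and 1 in a fit of the roxadustat and DMOG libraries only. Lss stood at 8.78, 11 and 15.7 FPKM (lowest, median and highest) in the roxadustat libraries and at 18.5, 22.9 and 24.4 FPKM in the other 5 DMOG libraries, with 23.5 FPKM in DMOG replicate 5 and 13.3, 18.3 and 24 FPKM with PBS. All 6 roxadustat libraries lay below all 6 DMOG libraries. Lss, which closes the sterol ring, differed by -0.92 ± 0.15 (limma adjusted p = 0.000576), and by -0.94 ± 0.14 with all libraries (adjusted p = 0.00235). Idi1, an isomerase of the pathway, averaged 25.1 ± 3.95 FPKM with roxadustat, 37.1 ± 4.55 FPKM with DMOG and 48.4 ± 12 FPKM with PBS (-0.56 ± 0.15; -0.69 ± 0.17 with all libraries). Pmvk, a kinase of the mevalonate steps, was lower at 15.6 ± 3.27 against 24.5 ± 3.52 FPKM (-0.64 ± 0.13), and so was Insig1, the sterol-regulated retention protein, at 79.4 ± 9.81 against 139.7 ± 22.7 FPKM (-0.81 ± 0.12), with 52.9 ± 7.7 FPKM with PBS. The median log2 difference of the list was -0.07, and against PBS it was -0.57 with roxadustat and -0.48 with DMOG.

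The rule for naming genes brought up further members with large differences. Higher with roxadustat were Osgin1, an inhibitor of growth induced by oxidative stress (1.66 ± 0.18; 73.9 ± 8.16 against 23.3 ± 4.49 FPKM with DMOG and 82.2 ± 24.3 with PBS), Sgk2, a kinase (1.59 ± 0.16), Arsg, a lysosomal sulfatase (1.58 ± 0.13), Cela2a, a pancreatic elastase (1.58 ± 0.19), and Bex2 (1.4 ± 0.27). Of these, Osgin1, Arsg and Cela2a were called with all 12 libraries. Sgk2 averaged 2.35 ± 0.608 FPKM with roxadustat, 0.443 ± 0.195 FPKM with DMOG and 5.54 ± 1.26 FPKM with PBS, so both compounds lay below PBS. Lower with roxadustat were Tnnc1, the slow troponin C (-1.90 ± 0.23; 1.37 ± 0.479 against 6.6 ± 2.19 FPKM), Rnf186, a ubiquitin ligase of the RING type (-1.66 ± 0.18), Junb, an AP-1 subunit (-1.51 ± 0.22), Plk3, a polo-like kinase (-1.50 ± 0.22), Smox, spermine oxidase (-1.41 ± 0.16), Zbtb7c (-1.44 ± 0.13) and Fstl3, which binds activin (-1.30 ± 0.14). Slc16a5, of the monocarboxylate transporter family, was lower too (-1.14 ± 0.26), with ranges that overlap. Tnnc1, Plk3, Smox, Fstl3 and Slc16a5 were also called with all 12 libraries.

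Several genes that moved from PBS with both compounds were not called between them. Cdkn1a stood at 13.8, 15.9 and 18.2 FPKM (lowest, median and highest) in the roxadustat libraries and at 13.1, 15.1 and 17 FPKM in the other 5 DMOG libraries, with 2.97 FPKM in DMOG replicate 5 and 2.63, 3.36 and 4.55 FPKM with PBS. Cdkn1a, the cell cycle inhibitor p21, differed by 0.07 ± 0.11 between the compounds with a 95% interval of -0.16 to 0.29, and by 2.07 ± 0.10 and 2.01 ± 0.11 from PBS with roxadustat and with DMOG. For Igfbp1, the hypoxia- and fasting-induced binding protein of insulin-like growth factors, the difference was 0.00 ± 0.32 and the interval -0.68 to 0.68, with 1474 ± 456 FPKM with roxadustat, 1584 ± 678 FPKM with DMOG and 466 ± 151 FPKM with PBS. For Pck1, the rate-setting enzyme of gluconeogenesis, it was -0.07 ± 0.19 (-0.48 to 0.34), and for Fgf23, a phosphate-lowering hormone that was at most 0.0438 FPKM with PBS, -0.40 ± 0.25 (-0.92 to 0.12). Srebf2, which controls cholesterol synthesis, differed by 0.03 ± 0.08 (-0.14 to 0.20) and lay below PBS with both compounds (-0.57 ± 0.08 with roxadustat and -0.60 ± 0.08 with DMOG).

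Among further genes that were not called, several had wide intervals. Hamp, the gene of the iron hormone hepcidin, ranged from 2.92 to 46.5 FPKM with roxadustat and from 1.8 to 65.5 FPKM in the other 5 DMOG libraries, and its difference was -1.13 ± 0.85 (-2.92 to 0.66). Cyp17a1, a steroid hydroxylase, differed by 0.68 ± 0.31 (0.02 to 1.34, limma adjusted p = 0.155), with 5.73 ± 3.05 FPKM with roxadustat, 3.58 ± 2.5 FPKM with DMOG and 0.299 ± 0.164 FPKM with PBS. Fgf21, the fasting hormone of liver, differed by 0.85 ± 0.39 (0.02 to 1.68), Srebf1, which controls fatty acid synthesis, by 0.30 ± 0.15 (-0.01 to 0.60), and Lars2, a mitochondrial leucyl-tRNA synthetase, by -0.19 ± 0.40 (-1.02 to 0.65). A p that misses the threshold does not show that the compounds act alike on these genes.

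**Figure D4:**
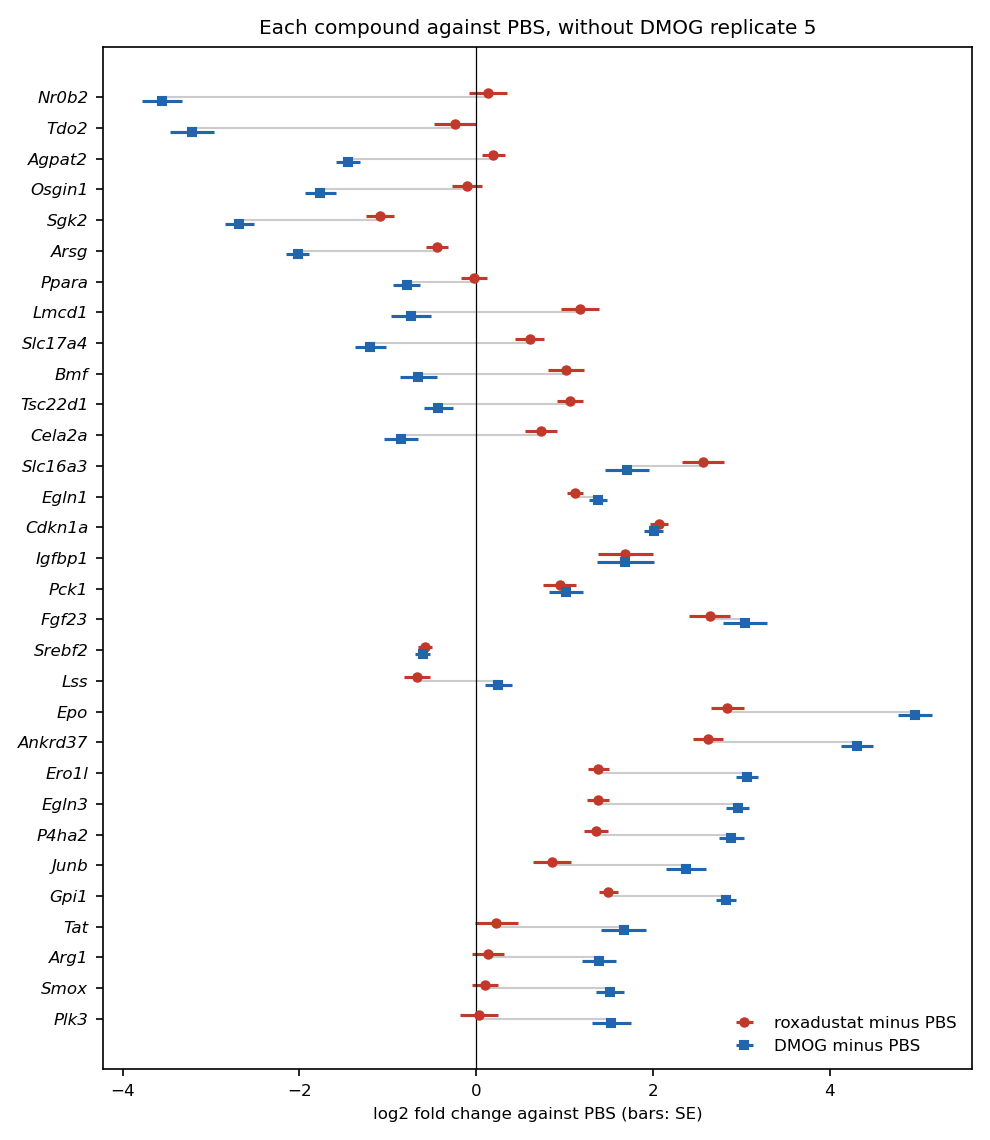
Log2 difference of each compound from PBS for 31 genes, without DMOG replicate 5, with roxadustat as circles, DMOG as squares and bars of 1 SE. The squares stand farther from 0 than the circles for Nr0b2, Tdo2, Epo and Egln3, the markers lie together for Cdkn1a, Igfbp1, Pck1 and Srebf2, and for Lmcd1 and Bmf they lie on opposite sides of 0. Both differences use the same PBS libraries.

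Of 30 immediate early and glucocorticoid response genes, 16 were called without DMOG replicate 5 (53.3%, against 16.2% of all genes tested), 15 lower with roxadustat and 1 higher, with a median log2 difference of -0.46. With all libraries 2 were lower, and with sex as a term, without DMOG replicate 5, 10 were lower. Per1, a clock gene that glucocorticoids induce, averaged 1.86 ± 0.375 FPKM with roxadustat, 5.04 ± 1.26 FPKM with DMOG and 1.58 ± 0.452 FPKM with PBS (-1.22 ± 0.17, limma adjusted p = 0.000135). Junb averaged 23.1 ± 5.28, 69.3 ± 28.4 and 12.5 ± 2.8 FPKM, Zbtb16, a glucocorticoid-induced zinc finger factor, 0.707 ± 0.227, 2.15 ± 0.76 and 0.846 ± 0.265 FPKM (-1.10 ± 0.19), and Fosl2, an AP-1 subunit, 4.16 ± 0.362, 7.09 ± 1.71 and 2.67 ± 0.252 FPKM (-0.68 ± 0.12), each in the order roxadustat, DMOG and PBS. Fkbp5, another glucocorticoid target, was the member that was higher with roxadustat (0.50 ± 0.12).

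In the iron and erythroid hormone list, 8 of 26 genes were called without DMOG replicate 5 (30.8%, against 16.2% of all genes tested). Of the 8, 6 were lower and 2 higher with roxadustat, and with all libraries 1 was lower and 2 were higher. Besides Epo, the zinc and iron importer Slc39a14 was lower (88.5 ± 12.5 against 133 ± 19 FPKM with DMOG, -0.58 ± 0.11), while Steap3, an iron reductase, averaged 11.1 ± 2.6 FPKM with roxadustat against 5.47 ± 1.51 FPKM with DMOG (0.96 ± 0.15) and Smad7, an inhibitor of the BMP signal to hepcidin, 4.99 ± 0.392 against 3.28 ± 0.473 FPKM (0.54 ± 0.09). Steap3 and Smad7 were also called with all libraries. Of 34 angiogenic genes 6 were lower and 2 higher with roxadustat (23.5%, against 16.2% of all genes tested), and with all libraries 1 was lower and 1 higher. They include, besides Apln and Vegfa, Dll4, a Notch ligand of vessels (-0.75 ± 0.11), as lower and Epha2, an ephrin receptor (0.69 ± 0.13), as higher.

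Of 37 acute phase genes 7 were lower with roxadustat and 1, Saa4, was higher (38.3 ± 6.95 FPKM with roxadustat against 18.1 ± 5.41 FPKM with DMOG, 1.09 ± 0.16), which is 21.6% against 16.2% of all genes tested, and the median was -0.23. With all 12 libraries 0 of the 37 were lower and 1 was higher. Steap4, a metalloreductase of inflammation (-1.16 ± 0.26), and Stat3, the factor of interleukin 6 signalling (-0.32 ± 0.07), were lower. With sex as a term 2 were lower, and 3 without DMOG replicate 4, or 4 without roxadustat replicate 4, roxadustat replicate 6 or DMOG replicate 6.

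The shares of the lists that follow here stand beside the 16.2% of all genes tested that were called without DMOG replicate 5. Of 20 oxidative stress genes 4 were higher, such as Gclm, of glutathione synthesis (0.91 ± 0.13), and 2 were lower, such as Srxn1, sulfiredoxin (-0.79 ± 0.19), 30.0% in all. The 4 became 2 without DMOG replicate 1, with sex as a term 2 were higher and 1 lower, and with all libraries 2 were higher and 0 lower. Of 18 clock genes 4 were higher, such as Hlf, a clock output (5.46 ± 0.85 against 2.01 ± 0.485 FPKM with DMOG and 8.74 ± 1.18 with PBS, 1.26 ± 0.13), and Per2 (0.54 ± 0.11), and 3 were lower (38.9%). With sex as a term 2 were higher and 2 lower, and with all libraries 2 were higher and 0 lower. Of 20 genes of p53 and growth arrest 3 were lower, Plk3, Btg2 and Trp53inp1 (-1.24 ± 0.23), and Trp53inp2 was higher (20%), against 1 lower and 1 higher with all libraries. Of 30 genes of the unfolded protein response 4 were lower and 3 higher (23.3%), with sex as a term 1 was lower and 2 were higher, and with all libraries 0 were called. Of 18 genes of one-carbon metabolism 2 were lower and 2 higher (22.2%), among them Shmt2 (-0.44 ± 0.09) as lower and Shmt1 (0.77 ± 0.14) as higher, with 1 in each direction with sex as a term and 0 with all libraries.

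Of 39 genes of xenobiotic metabolism 5 were higher and 1 lower, Sult1a1 (-0.53 ± 0.08), which is 15.4% and near the 16.2% of all genes tested. With sex as a term 0 were higher and 2 lower, and with all libraries 0 were higher and 1 lower. Leaving out 1 library at a time moved the 5 to between 1, as without roxadustat replicate 1, and 8, without DMOG replicate 2.

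In 4 further lists the share of members called without DMOG replicate 5 was under the 16.2% of all genes tested. It was 2.94% of 34 cell cycle genes, with Mcm6 lower, and 2.63% of 38 genes of oxidative phosphorylation, with Ndufa4l2 lower. Of 24 coagulation genes 3 were lower (12.5%, against the 7.15% of all genes that were lower). Of 27 genes of apolipoproteins and lipoproteins 2 were higher, Sort1 and Mttp, and 1 was lower (11.1%), and Mttp was not called with sex as a term. The medians of these lists lay between -0.08 and 0.06, and with all libraries 0 of their members were called.

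**Figure D5:**
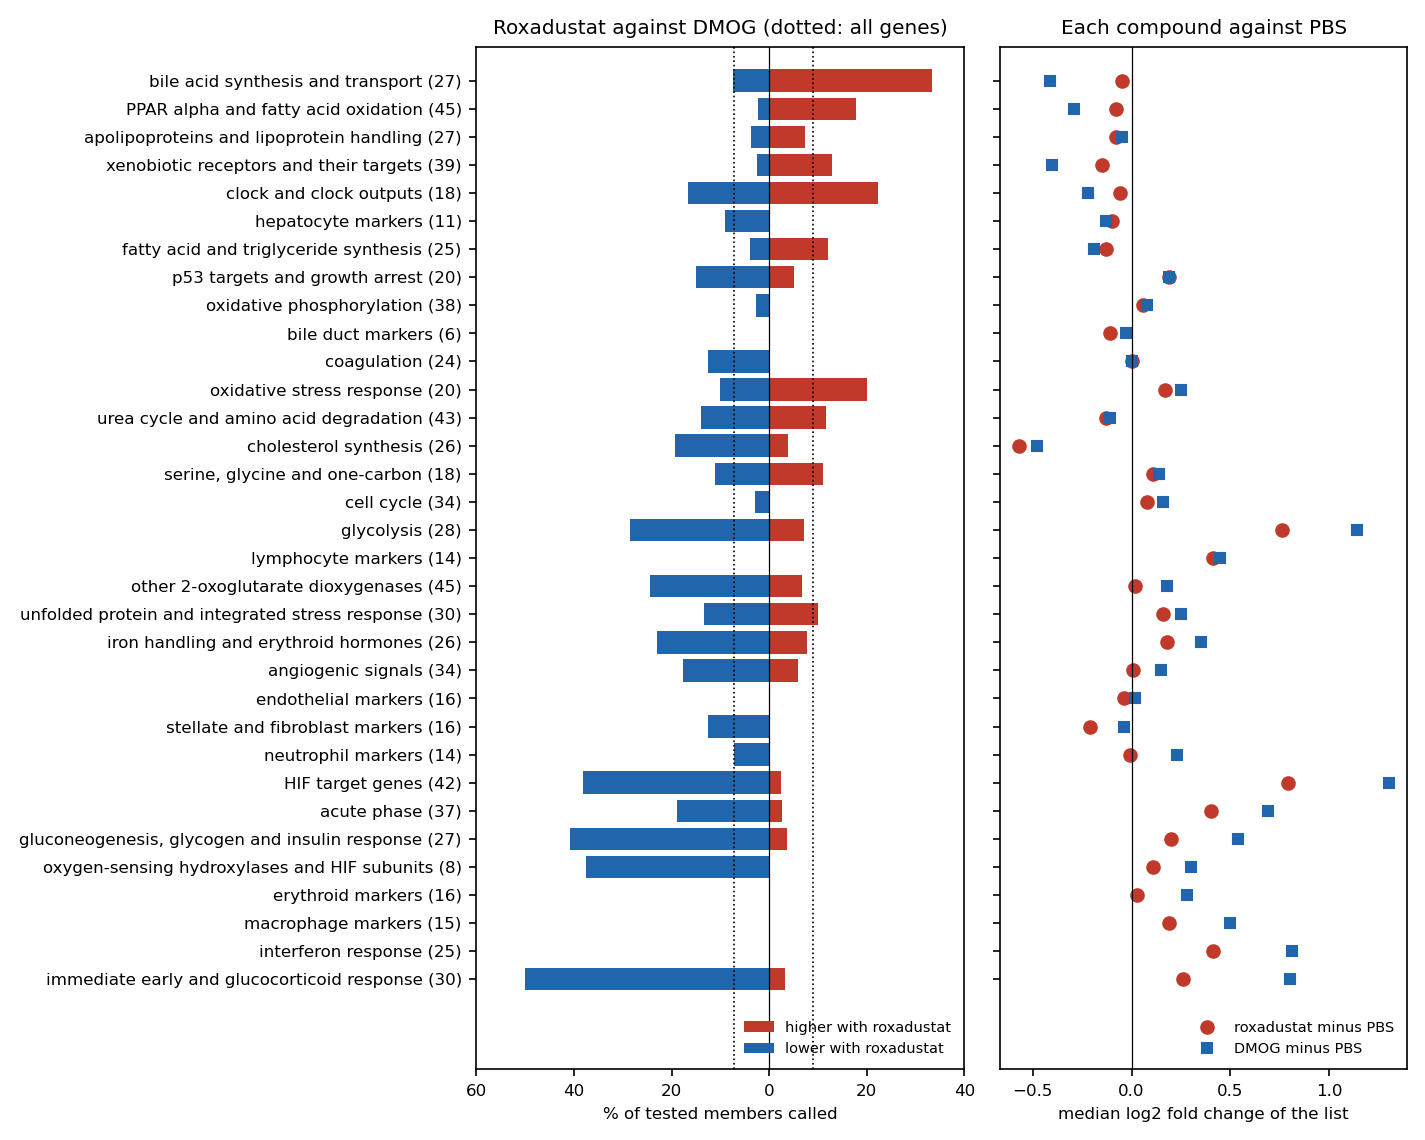
Left, the share of tested members of each list that were higher (red, to the right) or lower (blue, to the left) with roxadustat than with DMOG, without DMOG replicate 5, with the number tested in brackets and dotted lines at the 9.06% and 7.15% of all genes. Right, the median log2 difference of each list from PBS with roxadustat (circles) and with DMOG (squares), such as 0.79 and 1.30 for HIF targets.

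Markers of other cell types were looked at beside these groups. In whole tissue, fewer cells of a type and less RNA per cell cannot be told apart. Macrophage markers had 14 of 15 members with a negative difference and a median of -0.31, and 0 of 15 passed the test. Against PBS, 8 of the 15 were higher with DMOG without replicate 5 (against 17.3% of all genes, with a list median of 0.50) and 0 with roxadustat (median 0.19), and with all libraries 0 were higher with DMOG. Their summed level was 815.0 to 1801 FPKM with roxadustat, 1404 to 2113 FPKM in the other 5 DMOG libraries, 758 FPKM in DMOG replicate 5 and 959 to 1768 FPKM with PBS. Interferon response genes had a median of -0.40 and summed to 443 to 1612 FPKM, 641 to 1943 FPKM, 287 FPKM and 356 to 1680 FPKM in the same order, with 0 of 25 called. Neutrophil markers had a negative difference in 14 of 14 (median -0.22) and erythroid markers in 15 of 16 (median -0.25). With sex as a term, without DMOG replicate 5, the median was -0.05 for neutrophil and 0.04 for erythroid markers. In that fit it was -0.21 for macrophage markers and -0.34 for interferon response genes. Leaving out a further library moved the neutrophil median to between -0.38 and -0.03. Neutrophil markers summed to 1070.0 to 2285 FPKM with roxadustat, 1645 to 3039 FPKM in those 5 DMOG libraries and 970.0 to 2231 FPKM with PBS. Of the 14, 1, Lcn2, was lower with roxadustat, which 18 of 29 alternative settings also called. This share, 7.14%, is near the 7.15% of all genes that were lower. Among stellate cell markers Cygb (-0.50 ± 0.09) and Pdgfrb (-0.31 ± 0.06) were lower, out of 16 tested. This is 12.5%, against 16.2% of all genes called and 7.15% of all genes lower. Of the 16, 12 had a negative difference and 4, such as Acta2 (0.36 ± 0.16), a positive one. With all libraries 1 of the 16 was lower. None of the endothelial (16 tested, 12 of them negative), erythroid (16), lymphocyte (14, with 12 negative) or bile duct (6, with 3 negative) markers was called. With all 12 libraries, and no term for sex, the median was -0.05 for interferon response genes, -0.16 for macrophage, -0.21 for neutrophil and -0.22 for erythroid markers. In the same fit of all 12 libraries 7 of the 14 lymphocyte markers were negative. Of 11 exocrine pancreas markers 6 were at 0 in all 18 libraries, and Cela2a was 1 of the 2 that were tested. The part of these cell types in the differences above was not tested.

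Values within each sex are given as a description. Without DMOG replicate 5 there are 1 roxadustat and 4 DMOG libraries that are female, and 5 and 1 that are male, too few for a test. The log2 difference of Nr0b2 was 3.50 in females and 4.26 in males, that of Tdo2 2.73 and 3.27, that of Epo -1.93 and -2.34, and that of Egln3 -1.54 and -1.90. These genes were chosen because the compounds did not overlap, which fixes the sign within each sex.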

How the data were processed

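RNA-seq libraries of liver RNA from 6 roxadustat, 6 DMOG and 6 PBS samples were used, grouped by their treatment labels. The authors deposited FPKM values per gene, made on mm9 with bcl2fastq 1.8.3, TopHat2 and Cuffdiff 2.2.1, per the submitters' processing notes. A row of totals was left out, and 4260 of 22558 genes were at 0 in all 18 libraries. From the deposited FPKM, log2(FPKM + 0.5) was fitted with limma 3.58.1 (R 4.3.3) with 1 mean per group and a mean trend, over 12657 genes that averaged 0.5 FPKM or more over the 18 libraries. Tests were two-sided, with Benjamini-Hochberg adjustment at 0.05, with all libraries (15 residual degrees of freedom) and without DMOG replicate 5 (14). Fold changes on this scale understate those of low genes. FPKM holds no read counts, so no counting intervals are given, and genes with near-identical copies may share reads. The fit was tested on simulated data.

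Named genes were the 8 highest and 8 lowest called with all libraries, the 12 highest and 12 lowest without overlap when DMOG replicate 5 was left out, up to 4 members of each list with further called members, and a fixed set, and some genes are not reported here. Members and lists were chosen with earlier results of these data known. Alternatives were other pseudocounts, filters, scalings, variance settings and libraries, sex as a term, a replicate block and each library left out. The within-sex values were added after seeing the data.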

Additional observations from a re-analysis of the deposited data

Results flagged for a closer look

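In 46 genes, those ranked highest or lowest and a fixed set, each group of 6 libraries was searched for a value far from the rest (Dixon's 95% criterion on the log2 scale). Of 138 groups 20 had such a value, 15 of them in DMOG replicate 5. Chance gives about 1 in 20 groups, but many of these genes were ranked with that library set aside for its values, so its 15 values restate that choice and are not read against the chance rate. Their causes were not tested.

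DMOG replicate 5 was low for Epo (listed at 0, against 17.2 to 24.6 FPKM in the other DMOG libraries), Ankrd37 (1.23 against 33.9 to 56.9), Ero1l (15.7 against 88.7 to 151), Egln3 (8.23 against 46.4 to 72.5), P4ha2 (0.959 against 7.34 to 12.9) and Vegfa (16.1 against 35.7 to 46.7). It was also low for Junb (9.25 against 45.9 to 116), Rnf186 (0.827 against 6.19 to 14.8), Zbtb7c (0.357 against 3.52 to 5.59) and Cdkn1a (2.97 against 13.1 to 17). The same library was high for Osgin1 (72 against 16.7 to 28.2 FPKM), Arsg (19.6 against 2.75 to 5.27), Bex2 (21.7 against 1.17 to 3.81), Sgk2 (5.79 against 0.176 to 0.694) and Srebf2 (12.1 against 8.47 to 9.08).

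Roxadustat replicate 2 was low for Epo (2.12 FPKM against 5.07 to 5.65 in the other roxadustat libraries) and Ankrd37 (9.07 against 14.7 to 17.7), and roxadustat replicate 5 was high for Nr0b2 (39.4 against 25.2 to 28.6). DMOG replicate 6 was high for Hif1an (6.89 against 6.06 to 6.32), and PBS replicate 3 was low for Ero1l (11.1 against 13.5 to 14.6).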

How the results depend on the processing

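With all libraries, the 379 called genes became 232 with no filter on low values, 62 in a fit of the roxadustat and DMOG libraries only, 78 with sex as a term and 1692 with a weight per library. Leaving out 1 library at a time gave 104 (without DMOG replicate 1) to 2052 (without DMOG replicate 5). Without DMOG replicate 5, the 2052 became 1327 with a mean of at least 5 FPKM, where fewer genes are tested, and 1237 with sex as a term, and leaving out a further library gave 1560 to 2327. The cause of the other moves was not tested. Other pseudocounts, scalings and variance settings kept both counts within 1.5 times.

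Labels share replicate numbers, but the deviations of same-numbered roxadustat and DMOG libraries correlated between -0.289 and 0.546, and only numbers 3 and 5 matched best with themselves, so the numbers are not taken as pairs. With a replicate block 396 genes were called with all libraries, 307 of them shared, and 2066 without DMOG replicate 5.

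Of the named genes and called list members that are reported here, no called difference changed sign in these alternatives. Of their calls without DMOG replicate 5, 1936 of gene and setting pairs stayed called and 133 did not, and 2705 and 270 when a further library was left out. With all libraries the pairs were 475 and 101, and 640 and 242. The losses were uneven over the settings. With all libraries, 14 of these calls stayed and 35 did not with sex as a term. In a fit of the roxadustat and DMOG libraries only, 11 stayed and 38 did not. Without DMOG replicate 5 the same settings kept 129 and 145 calls and lost 46 and 30. Absolute depth is unknown, which limits what can be said of genes near 0.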
